A study of Arabidopsis with 8 samples.

Results

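The genes described here are 6 genes of the Casparian strip of the root endodermis, namely CASP1, CASP2, CASP4, CASP5, ESB1 and SGN3, taken by locus identifier from 25397 genes listed in at least 1 of 8 RNA libraries of Arabidopsis thaliana. All 6 were found, and the deposited tables give ESB1 under the name DIR10 and SGN3 under the name GSO1. The seedlings were 5 days old and came from the saur41/40/71/72 quadruple mutant, in which SAUR41, SAUR40, SAUR71 and SAUR72 are mutated, and from the wild type Col-0. Each genotype was sampled as root and as the shoot part, with 2 libraries per genotype and tissue. SAUR genes are small auxin-induced genes of growth control, and the study set the transcriptomes of the 2 genotypes side by side. Nothing in the labels tells if the paired libraries of 1 genotype and tissue were grown apart, so p-values measure only the spread between these libraries. The labels give neither the kind of mutant alleles nor the point at which root and shoot were separated.

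The Casparian strip is a band of lignin in the walls of endodermal cells that seals the space between cells, so that water and ions must cross a membrane to reach the stele. CASP proteins form a membrane platform that marks where the band is laid down, and they gather the enzymes that polymerise lignin there. ESB1 is a dirigent protein needed for an unbroken band, and SGN3 is a receptor kinase that senses peptides made in the stele and checks that the seal is closed. The transcription factor MYB36 switches on CASP1, ESB1 and other genes of the strip.

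Expression was deposited as FPKM, the fragments per kilobase of transcript scaled to all fragments mapped in the library, so levels can be compared between genes. Changes are differences in log2 of FPKM plus 1 with a standard error (SE); the added 1 shrinks the change of any gene near or under 1 FPKM. The libraries listed 21355 to 22858 genes. Read numbers were not used here. From the ratios of low FPKM values, relative depth spanned 0.874 to 1.08 among the root libraries and 0.896 to 1.24 among the shoot libraries, with Col-0 replicate 1 of each tissue set to 1. Col-0 shoot replicate 1 stood apart: it listed the fewest genes, and of the 4 shoot libraries it held the lowest value for 67.0% of the 19985 genes tested. Of the 4 mutated genes, SAUR41 had 7.75 and 7.10 FPKM in mutant roots and 7.98 and 7.15 FPKM in Col-0 roots, and 1.09 and 0.845 FPKM in mutant shoots and 1.21 and 0.745 FPKM in Col-0 shoots. SAUR72 had 16.9 and 16.3 FPKM in mutant roots and 23.4 and 31.6 FPKM in Col-0 roots, and 4.18 and 3.96 FPKM in mutant shoots and 9.41 and 7.57 FPKM in Col-0 shoots. SAUR71 was under 1 FPKM in every root library, and had 3.28 and 3.02 FPKM in mutant shoots and 7.91 and 5.22 FPKM in Col-0 shoots, while SAUR40 stayed under 0.1 FPKM throughout. The mutant libraries therefore still held transcripts of SAUR41, SAUR71 and SAUR72, and none of the 3 passed the test in root or in shoot. With the place of the mutations unknown here, these values do not check the genotype labels. In bulk tissue, fewer endodermal cells and less RNA per endodermal cell cannot be told apart.

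In root, the 6 genes covered a wide range of levels in a fixed order. CASP1 and ESB1 stood at the top, CASP2 followed, and SGN3, CASP4 and CASP5 were lowest, in mutant and Col-0 alike. CASP1 (AT2G36100; TAIR10 chromosome 2, 15158561 to 15160750) had 131 and 119 FPKM in mutant roots and 122 and 111 FPKM in Col-0 roots. ESB1 (AT2G28670; chromosome 2, 12300203 to 12302358) had 122 and 106 FPKM in mutant roots and 107 and 95.3 FPKM in Col-0 roots. Only in the mutant did the libraries of these 2 genes overlap in level; every other pair of neighbours in the order was separate in both genotypes. CASP2 (AT3G11550; chromosome 3, 3638195 to 3639197), a second scaffold gene, had 51.5 and 40.8 FPKM in mutant roots and 43.5 and 37.4 FPKM in Col-0 roots.

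The receptor and the last CASP genes were far lower than CASP1. SGN3 (AT4G20140; chromosome 4, 10884197 to 10889597) had 13.7 and 13.5 FPKM in mutant roots and 12.2 and 10.8 FPKM in Col-0 roots. CASP4 (AT5G06200; chromosome 5, 1877333 to 1878116) had 12.6 and 10.5 FPKM in mutant roots and 10.7 and 10.4 FPKM in Col-0 roots. CASP5 (AT5G15290; chromosome 5, 4967011 to 4968035) was the lowest member in all 4 groups, with 7.89 and 8.06 FPKM in mutant roots and 7.66 and 5.60 FPKM in Col-0 roots. Across the 4 root libraries the members varied little: the highest library was 1.18 times the lowest for CASP1 and 1.44 times for CASP5, with the other members between. They also moved together from library to library. Col-0 root replicate 2 was the lowest root library for 6 of 6 members, against 28.2% of all genes tested, and mutant root replicate 1 was the highest for 5 of 6, against 20.8%.

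**Figure D1:**
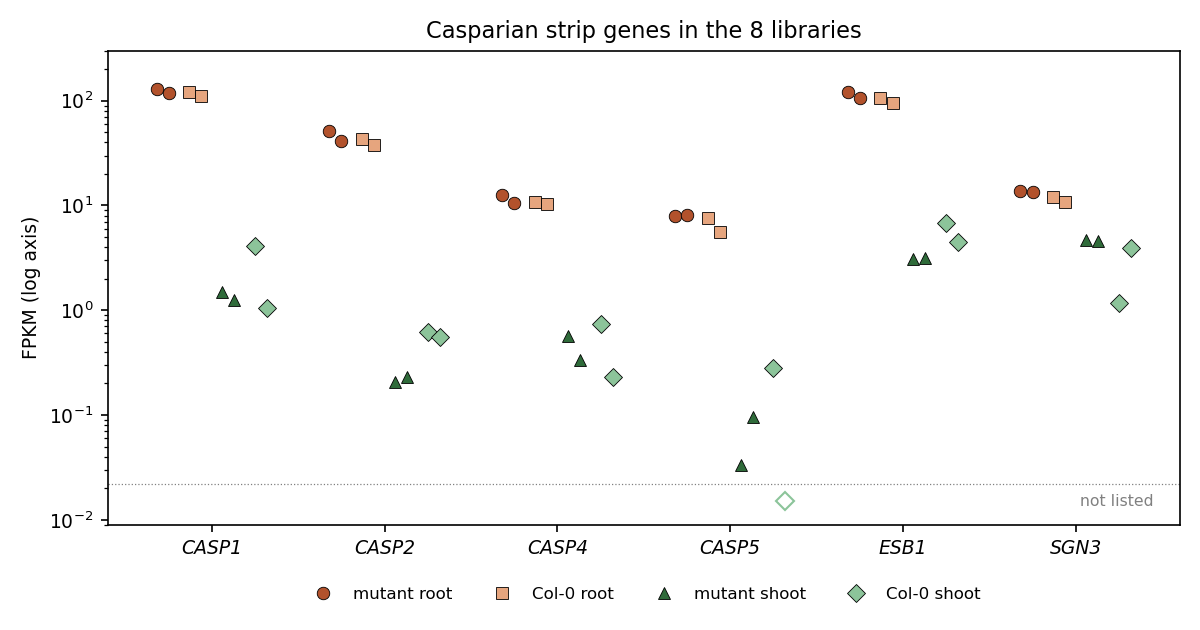
FPKM (log axis) of the 6 Casparian strip genes in each library, with 2 points per group for mutant root, Col-0 root, mutant shoot and Col-0 shoot, and an open point where a gene was not listed. Root points lie above shoot points for every gene; CASP1 spans 111 to 131 FPKM in root and 1.04 to 4.08 FPKM in shoot, while SGN3 shows the narrowest step.

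The tables give overlapping genes 1 merged locus, which concerns 3 members. The coordinates given above for CASP1, ESB1 and SGN3 are those of the merged loci. Strandedness is unknown here, so reads within such a locus may have been assigned to either gene. CASP1 shares its locus with AT2G36090, which had 14.1 and 11.6 FPKM in mutant roots and 11.5 and 14.0 FPKM in Col-0 roots. ESB1 shares its locus with AT2G28671, which stayed at or under 0.134 FPKM in every library. The neighbour of SGN3 is far more abundant than SGN3 itself: AT4G20150 had 209 and 186 FPKM in mutant roots and 229 and 244 FPKM in Col-0 roots. It had 72.0 and 69.3 FPKM in mutant shoots and 108 and 57.3 FPKM in Col-0 shoots. The loci of CASP2, CASP4 and CASP5 hold no other gene of the tables.

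All 6 genes were higher in root than in the shoot part, in both genotypes. CASP1 stood at 1.5 and 1.25 FPKM in mutant shoots and 4.08 and 1.04 FPKM in Col-0 shoots, and its root minus shoot change was 5.73 in the mutant (SE 0.38, limma adjusted p = 1.25e-05) and 5.18 in Col-0 (SE 0.38, adjusted p = 1.86e-05). CASP2 stood at 0.205 and 0.232 FPKM in mutant shoots and 0.613 and 0.555 FPKM in Col-0 shoots (change 5.26 in the mutant, limma adjusted p = 3.72e-07, and 4.71 in Col-0, adjusted p = 5.31e-07). For both scaffold genes even the highest shoot library lay far under the lowest root library. Their changes were larger than those of 98.82% to 99.19% of all genes tested in the mutant and of 98.02% to 98.63% in Col-0.

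CASP4 and CASP5 showed the same direction at lower levels. Like CASP2, they entered the test through their root mean only, the tissue where they are high. CASP4 stood at 0.564 and 0.334 FPKM in mutant shoots and 0.733 and 0.228 FPKM in Col-0 shoots, with a change of 3.12 in the mutant (limma adjusted p = 1.07e-05) and 2.98 in Col-0 (adjusted p = 1.21e-05). CASP5 stood at 0.0332 and 0.0967 FPKM in mutant shoots, and in Col-0 shoots it stood at 0.279 FPKM in replicate 1 and was not listed in replicate 2. Its change was 3.08 in the mutant (limma adjusted p = 6.75e-06) and 2.74 in Col-0 (adjusted p = 1.11e-05). With its root level under 10 FPKM, the change of CASP5 on this scale is bounded by the added 1: with 0.1 added in place of 1 it was 5.64 in the mutant and 5.10 in Col-0.

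ESB1 was the highest member in Col-0 shoots. It stood at 3.09 and 3.15 FPKM in mutant shoots and 6.86 and 4.46 FPKM in Col-0 shoots, with a root minus shoot change of 4.80 in the mutant (limma adjusted p = 1.11e-06) and 3.96 in Col-0 (adjusted p = 2.59e-06). SGN3 was the least root-bound member. It stood at 4.64 and 4.54 FPKM in mutant shoots and 1.17 and 3.91 FPKM in Col-0 shoots, with a change of 1.38 in the mutant (SE 0.35, limma adjusted p = 0.00905) and 1.94 in Col-0 (SE 0.35, adjusted p = 0.00157). Its shoot mean was 33.8% of its root mean in the mutant and 22.1% in Col-0, against 0.473% to 3.88% in the mutant and 1.45% to 5.61% in Col-0 for the other 5 members. For AT4G20150, which shares its locus, the shoot mean was 35.7% of the root mean in the mutant and 35.0% in Col-0; the part of the shared locus in the SGN3 values was not tested.

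Most genes were called higher in root, so the count of calls says little about the members. All 6 passed as higher in root at a limma adjusted p under 0.05, against 58.7% of the 19985 genes tested in the mutant and 72.1% in Col-0 (76.4% and 87.2% in either direction). Both root libraries lay above both shoot libraries for all 6 members, against 72.6% of genes in the mutant and 75.7% in Col-0, while 22.7% and 16.7% of genes lay wholly below. The median change over all genes was 0.81 in the mutant and 1.23 in Col-0, and over the 6 members it was 3.96 in the mutant and 3.47 in Col-0. Relative to the median of all genes, SGN3 changed by 0.57 in the mutant and 0.71 in Col-0, and CASP1 by 4.92 and 3.96. After rescaling of all libraries by their median ratio, SGN3 no longer passed in the mutant (change 0.60, limma adjusted p = 0.112); the other 5 members passed in both genotypes under every alternative run.

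**Figure D2:**
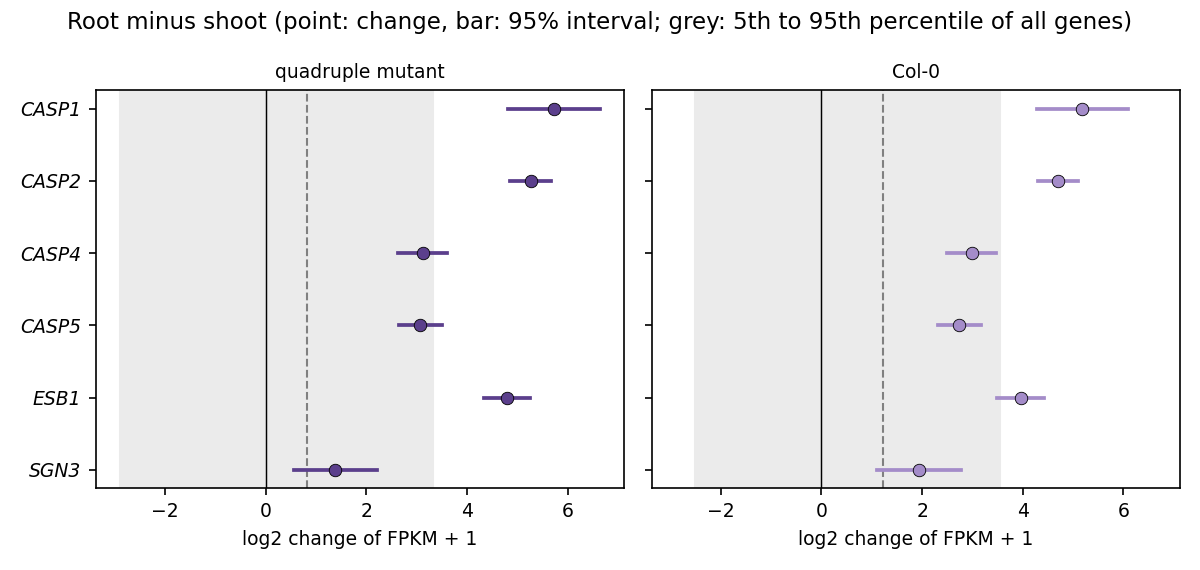
Root minus shoot change in log2 of FPKM plus 1 for each Casparian strip gene in the mutant (left) and in Col-0 (right), with 95% intervals, the median of all genes (dashed) and their 5th to 95th percentile (grey). CASP1, CASP2 and ESB1 lie to the right of the grey band in both genotypes, and SGN3 lies inside it at 1.38 and 1.94.

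Ratios within a library do not depend on how libraries were scaled, and they showed a make-up of the CASP genes that was nearly fixed in root. Of the summed FPKM of CASP1, CASP2, CASP4 and CASP5, called the CASP sum here, CASP1 made up 64.5% and 66.8% in mutant roots and 66.4% and 67.4% in Col-0 roots. CASP2 made up 22.8% to 25.4%, CASP4 5.82% to 6.35% and CASP5 3.42% to 4.51% over the 4 root libraries. ESB1 stood at 0.60 and 0.593 times the CASP sum in mutant roots and at 0.580 and 0.582 times in Col-0 roots. SGN3 stood at 0.0676 and 0.0752 times the CASP sum in mutant roots and at 0.0661 and 0.0661 times in Col-0 roots. Both mutant ratios thus lay above both Col-0 ratios for SGN3 and for ESB1, by small steps, and this difference was not tested. The shares of CASP1, CASP2, CASP4 and CASP5 all overlapped between genotypes in root. For FPKM itself, 20.5% of all genes tested had both mutant root libraries above both Col-0 libraries, and 22.9% had them below. Deviations from the root mean ran against locus length in Col-0 roots (Spearman rho -0.2808 and -0.2557 across genes, which are not independent replicates). In mutant roots they ran with it (0.2095 and 0.3293). The root mean is taken over the same 4 libraries, so the opposite signs are not independent of each other. The locus of SGN3, at 5401 bases and merged with that of AT4G20150, is the longest of the members. The part of this trend in the ratios was not tested.

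In shoot 3 of the 6 ratios lay apart from root and 3 overlapped it. CASP4 made up 24.6% and 17.4% of the CASP sum in mutant shoots and 12.9% and 12.5% in Col-0 shoots, above every root library. CASP1 kept a share of 57.1% to 71.5% over the shoot libraries, which overlapped its share in root. CASP2 at 8.91% to 30.4% and CASP5 at 0% to 5.05% overlapped root as well, over wider ranges than in root. ESB1 stood at 1.35 and 1.65 times the CASP sum in mutant shoots and 1.20 and 2.44 times in Col-0 shoots. SGN3 stood at 2.02 and 2.37 times the CASP sum in mutant shoots and 0.205 and 2.14 times in Col-0 shoots. For CASP4, ESB1 and SGN3 the 4 root libraries were separate from the 4 shoot libraries, also within each genotype (exact permutation test, two-sided p = 0.0286, the smallest that 4 against 4 libraries can give). None of the 6 ratios passed after Benjamini-Hochberg adjustment over them, with an adjusted p of 0.0571 for these 3 in the exact permutation test and 0.214 to 0.657 for the other 3. The CASP sum in shoot was 2.30 and 1.92 FPKM in the mutant and 5.71 and 1.83 FPKM in Col-0, so shoot shares rest on low values. The SGN3 ratios of the Col-0 shoot pair lay far apart, with replicate 1 the low one.

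**Figure D3:**
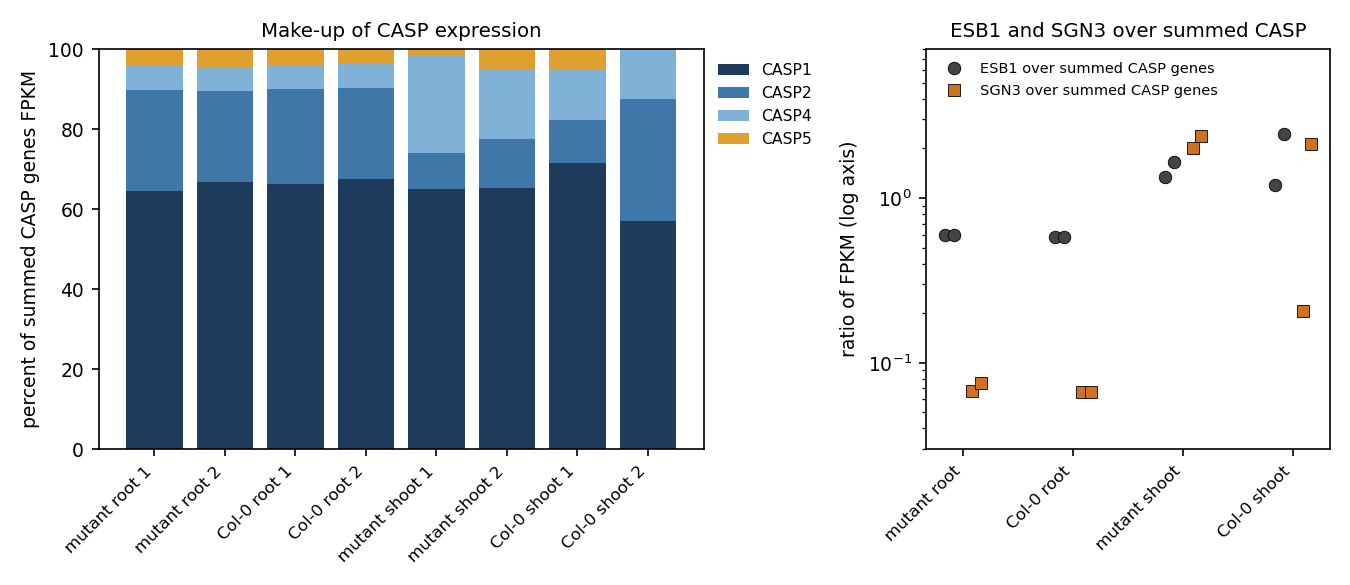
Left, share of each CASP gene in the summed FPKM of CASP1, CASP2, CASP4 and CASP5 in each library (percent, stacked bars). Right, ESB1 and SGN3 as ratios to that sum (log axis, 2 points per group); root points lie between 0.580 and 0.60 for ESB1 and between 0.0661 and 0.0752 for SGN3, and all shoot points lie higher.

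The genotype comparison asked whether the strip genes differ in level between the quadruple mutant and Col-0. In root, 6 of 6 members had a higher mean in the mutant than in Col-0, and none passed the test. Of all genes tested, 47.9% had a positive change. The changes were small, between 0.10 for CASP1 and 0.25 for CASP5, with a median of 0.18 against a median of -0.00 over all genes. CASP1 averaged 125 ± 7.96 FPKM in mutant roots and 116 ± 8.11 FPKM in Col-0 roots (SD, n = 2 each), a change of 0.10 with a 95% interval of -0.81 to 1.02 (limma adjusted p = 1). CASP2 averaged 46.1 ± 7.52 FPKM in mutant roots and 40.4 ± 4.30 FPKM in Col-0 roots (SD, n = 2 each), a change of 0.18 with an interval of -0.22 to 0.58 (limma adjusted p = 1). ESB1 averaged 114 ± 10.9 FPKM in mutant roots and 101 ± 8.0 FPKM in Col-0 roots (SD, n = 2 each; change 0.17, interval -0.29 to 0.63, limma adjusted p = 1). All 3 genes overlapped between genotypes.

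Both mutant libraries lay above both Col-0 libraries for 2 members, against 20.5% of all genes tested. One was CASP5, at 7.98 ± 0.120 FPKM in mutant roots and 6.63 ± 1.46 FPKM in Col-0 roots (SD, n = 2 each; change 0.25, interval -0.18 to 0.68, limma adjusted p = 1). The other was SGN3, at 13.6 ± 0.176 FPKM in mutant roots and 11.5 ± 0.936 FPKM in Col-0 roots (SD, n = 2 each; change 0.22, interval -0.60 to 1.05, limma adjusted p = 1). The change of CASP4 was 0.12 (limma adjusted p = 1), and it overlapped between genotypes. Over all genes the test in root called 2 genes, or 0.0100%, with 514 genes at an unadjusted p under 0.05. All 6 changes stayed positive under each rescaling, but CASP4 was at -0.0017 without mutant root replicate 1. The intervals reached up to 0.58 for CASP2 and 1.05 for SGN3, with the other members between. In the fit each gene has 1 spread for all 4 groups. On the fitted scale the Col-0 shoot pair is the widest for CASP1, SGN3, ESB1 and CASP4. In a fit of the root libraries alone the limma adjusted p of the members lay between 0.413 and 0.693. The 7 root hair genes, markers of another root cell type, summed to 182 and 183 FPKM in mutant roots and 158 and 144 FPKM in Col-0 roots, and all 7 were separate between genotypes in the same direction. Their part in the members' values was not tested.

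In shoot the scaffold genes and ESB1 had lower means in the mutant and SGN3 a higher one, and again none of the 6 passed the test, against 1.02% of all genes called (0.961% higher and 0.0600% lower). ESB1 had the lowest p of the 6. It averaged 3.12 ± 0.0416 FPKM in mutant shoots and 5.66 ± 1.70 FPKM in Col-0 shoots (SD, n = 2 each), a change of -0.67 with an interval of -1.13 to -0.21 (SE 0.19, limma adjusted p = 0.0835). CASP2 averaged 0.218 ± 0.0194 FPKM in mutant shoots and 0.584 ± 0.0410 FPKM in Col-0 shoots (SD, n = 2 each), a change of -0.38 (SE 0.17, limma adjusted p = 0.143). ESB1 and CASP2 were the 2 members with both mutant libraries below both Col-0 libraries, against 9.48% of genes. The change was -0.44 for CASP1 (SE 0.38, limma adjusted p = 0.413), -0.01 for CASP4 and -0.09 for CASP5 (limma adjusted p = 0.982 and 0.762), and all 3 overlapped between genotypes. SGN3 averaged 4.59 ± 0.0686 FPKM in mutant shoots and 2.54 ± 1.94 FPKM in Col-0 shoots (SD, n = 2 each), a change of 0.78 (SE 0.35, limma adjusted p = 0.145), with both mutant libraries above both Col-0 libraries, as for 56.8% of genes.

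In shoot 75.6% of all genes had a positive change in the mutant, with a median of 0.31. Relative to that median ESB1 stood at -0.98, CASP1 at -0.76, CASP2 at -0.69 and SGN3 at 0.46. Col-0 shoot replicate 1 was the highest shoot library for 5 of the 6 members, against 19.1% of all genes tested. It was the lowest for SGN3, as for 67.0% of genes. Deviations of this library from the shoot mean ran against the length of the locus (Spearman rho -0.589 across genes, which are not independent replicates), and those of the other 3 shoot libraries ran with it (0.273 to 0.521). The shoot mean includes this library, so the signs of the other 3 are not a separate observation. SGN3 has the longest locus of the 6 at 5401 bases, a merged length shared with AT4G20150 that was also used in removing the length trend. A list of 6 photosynthetic genes summed to 44090 and 39013 FPKM in mutant shoots, out of 673223 and 655798 FPKM over all genes. In Col-0 shoots these genes summed to 69528 and 49196 FPKM, out of 715978 and 663464 FPKM. All 6 were separate between genotypes in the direction of ESB1 and CASP2, against 9.48% of all genes, and the part of the length trend and of these genes in the members' values was not tested beyond the fits given here. After removal of the length trend the change of SGN3 was 0.09 (limma adjusted p = 0.68) and that of ESB1 was -0.95 (adjusted p = 0.0527). Without Col-0 shoot replicate 1, ESB1 passed alone among the members, at -0.41 (limma adjusted p = 0.0272), while CASP1 turned to 0.22, CASP4 to 0.23 and CASP5 to 0.09, and SGN3 stood at 0.19 (adjusted p = 0.245). Without Col-0 shoot replicate 2, ESB1 (-0.93), CASP1 (-1.1), CASP2 (-0.41) and SGN3 (1.36) passed. Those 2 fits called 5210 and 13202 genes in all, and each takes the lone Col-0 shoot library to vary like the other groups.

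**Figure D4:**
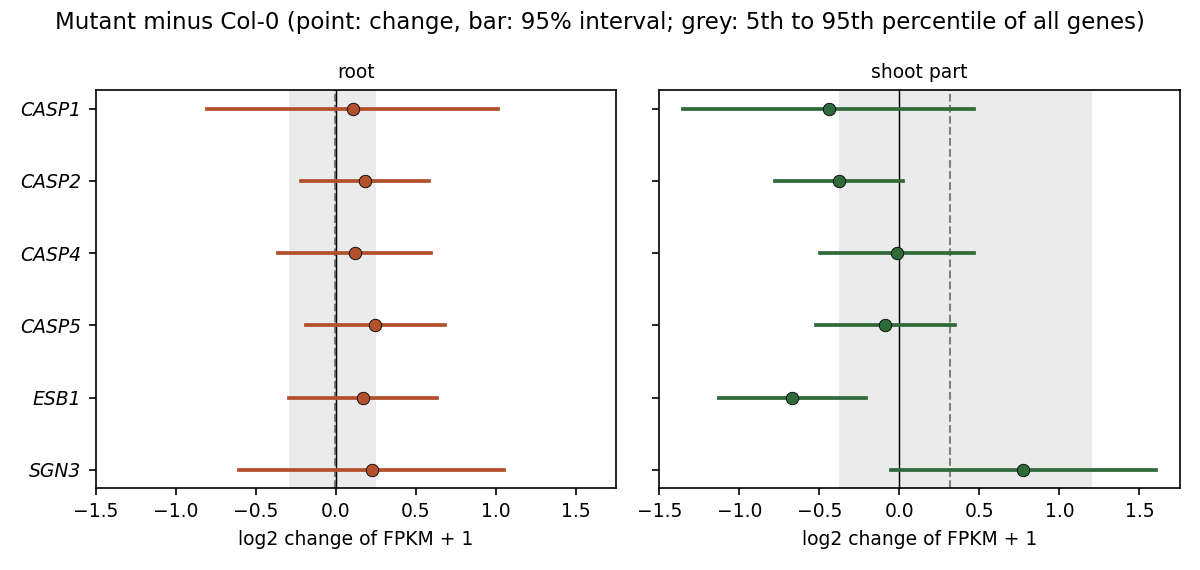
Mutant minus Col-0 change in log2 of FPKM plus 1 for each Casparian strip gene in root (left) and in the shoot part (right), with 95% intervals, the median of all genes (dashed) and their 5th to 95th percentile (grey). In root all 6 points lie between 0.10 and 0.25 with intervals across 0, and in shoot only the interval of ESB1, -1.13 to -0.21, lies clear of 0.

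The genotype effect was not shown to differ between root and shoot for any member. The difference of the 2 effects, root minus shoot, was 0.84 for ESB1 (SE 0.27, limma adjusted p = 0.291), 0.56 for CASP2 (SE 0.24, adjusted p = 0.323) and 0.55 for CASP1 (SE 0.54, adjusted p = 0.529). It was 0.33 for CASP5, 0.13 for CASP4 and -0.55 for SGN3, with limma adjusted p between 0.435 and 0.781. Over all genes the test called 0, with 3094 at an unadjusted p under 0.05, among them 1 member, ESB1. Without Col-0 shoot replicate 1 it called ESB1 (0.57), and without Col-0 shoot replicate 2 it called ESB1 (1.1), CASP1 (1.20), CASP2 (0.59) and SGN3 (-1.14), among 2075 and 11547 genes in all.

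The rest of the pathway was followed in a list of 27 genes, all of which were tested. In root 21 of them had a higher and 6 a lower mean in the mutant, where 47.9% of all genes had a positive change. Their median change was 0.07, and 0 passed the test in either direction. MYB36, the transcription factor of the strip, had 17.0 and 16.6 FPKM in mutant roots and 18.8 and 14.7 FPKM in Col-0 roots. The lignin-polymerising peroxidase gene PER64 had 44.7 and 38.4 FPKM in mutant roots and 42.4 and 33.7 FPKM in Col-0 roots. RBOHF, an oxidase that supplies superoxide for lignin polymerisation, had 24.7 and 29.5 FPKM in mutant roots and 25.1 and 23.0 FPKM in Col-0 roots. All 3 overlapped between genotypes. TPST, which sulfates the peptides that SGN3 senses, had 15.4 and 15.8 FPKM in mutant roots and 16.0 and 14.2 FPKM in Col-0 roots. EXO70A1, an exocyst subunit needed for CASP placement, had 47.5 and 46.6 FPKM in mutant roots and 43.8 and 40.2 FPKM in Col-0 roots, with the genotypes separate by a small step. UCC1, a copper protein of the uclacyanin type, had 51.4 and 47.4 FPKM in mutant roots and 52.9 and 41.4 FPKM in Col-0 roots.

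The largest difference of this list in root was that of DIR25, a dirigent gene like ESB1. It had 5.38 and 4.11 FPKM in mutant roots and 2.49 and 2.44 FPKM in Col-0 roots, a change of 0.72 (SE 0.13, limma unadjusted p = 9.62e-04, adjusted p = 0.769). DIR24 had 129 and 110 FPKM in mutant roots and 112 and 97.9 FPKM in Col-0 roots, and DIR16 had 81.2 and 74.7 FPKM in mutant roots and 79.1 and 69.6 FPKM in Col-0 roots. DIR9 had 55.9 and 49.2 FPKM in mutant roots and 49.1 and 47.0 FPKM in Col-0 roots, and DIR18 had 62.3 and 48.2 FPKM in mutant roots and 56.8 and 53.9 FPKM in Col-0 roots. Of these 5, DIR25 and DIR9 were separate between genotypes. The change of the 4 dirigent genes other than DIR25 lay between -0.01 for DIR18 and 0.18 for DIR24. PER64 and the dirigent genes DIR9, DIR16, DIR18 and DIR25 each share a merged locus with another gene. The second largest difference ran the other way: the locus AT2G16385 had 9.54 and 7.24 FPKM in mutant roots and 13.3 and 12.0 FPKM in Col-0 roots (change -0.55, SE 0.15, limma unadjusted p = 0.00882, adjusted p = 1). Both mutant root libraries lay below both Col-0 libraries for 4 of the 27, against 22.9% of all genes, and above for 6, against 20.5%. The 4 were AT2G16385, AT4G34600 (114 and 99.5 FPKM in mutant roots and 125 and 126 FPKM in Col-0 roots) and, chosen after their values were seen, the transcription factor genes MYB68 (change -0.29) and SCZ (change -0.18).

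In shoot the pathway list held 13 higher and 13 lower means in the mutant and 1 gene not listed in any shoot library, with a median change of 0.00, and 0 passed. RBOHF had 6.11 and 6.76 FPKM in mutant shoots and 0.741 and 3.16 FPKM in Col-0 shoots (change 1.46, SE 0.37, limma adjusted p = 0.0744). EXO70A1 had 19.6 and 19.7 FPKM in mutant shoots and 5.04 and 14.0 FPKM in Col-0 shoots (change 1.12, SE 0.37, limma adjusted p = 0.0956). As for SGN3, Col-0 shoot replicate 1 was the lowest library for both. The lowest p of the list in shoot was that of RBOHD, chosen after its values were seen (change 1.38, SE 0.25, limma unadjusted p = 0.00112, adjusted p = 0.0561). The loci of RBOHF, EXO70A1 and RBOHD are long, at 7158, 4602 and 4619 bases. The part of the length trend in their shoot values was not tested. TPST had 6.93 and 6.25 FPKM in mutant shoots and 2.86 and 4.60 FPKM in Col-0 shoots (change 0.71, SE 0.20, limma adjusted p = 0.0825), while MYB36 stayed at or under 0.492 FPKM in every shoot library. For the difference between tissues 0 of 27 passed.

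Between tissues most genes of the pathway list were higher in root. Of its 27 genes 25 were called higher in root in the mutant, against 58.7% of all genes, and 26 in Col-0, against 72.1%, with a median root minus shoot change of 4.38 in the mutant and 3.93 in Col-0. The shoot mean was under 6% of the root mean for 18 of 27 genes in the mutant and 19 of 27 in Col-0, and for 5 of 6 members in each genotype. The limit of 6% was set with the members' values known. Of all 18909 genes with a root mean of at least 1 FPKM, 9.96% were under it in the mutant and 11.9% in Col-0. The 2 genes of the list not called higher in root in the mutant, SCR and RBOHD, were chosen after their values were seen. SCR, a transcription factor of endodermal identity, had 20.5 and 20.7 FPKM in mutant roots, 19.0 and 20.4 FPKM in Col-0 roots, 17.0 and 16.4 FPKM in mutant shoots and 12.5 and 20.0 FPKM in Col-0 shoots. Its root minus shoot change was 0.29 in the mutant and 0.29 in Col-0 (limma adjusted p = 0.241 and 0.222). RBOHD, a second oxidase, had 51.7 and 71.3 FPKM in mutant roots, 54.2 and 59.1 FPKM in Col-0 roots, 77.6 and 91.4 FPKM in mutant shoots and 24.8 and 40.6 FPKM in Col-0 shoots. It was called higher in root in Col-0 (change 0.81, limma adjusted p = 0.0196), while in the mutant the change was -0.47 (adjusted p = 0.134).

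**Figure D5:**
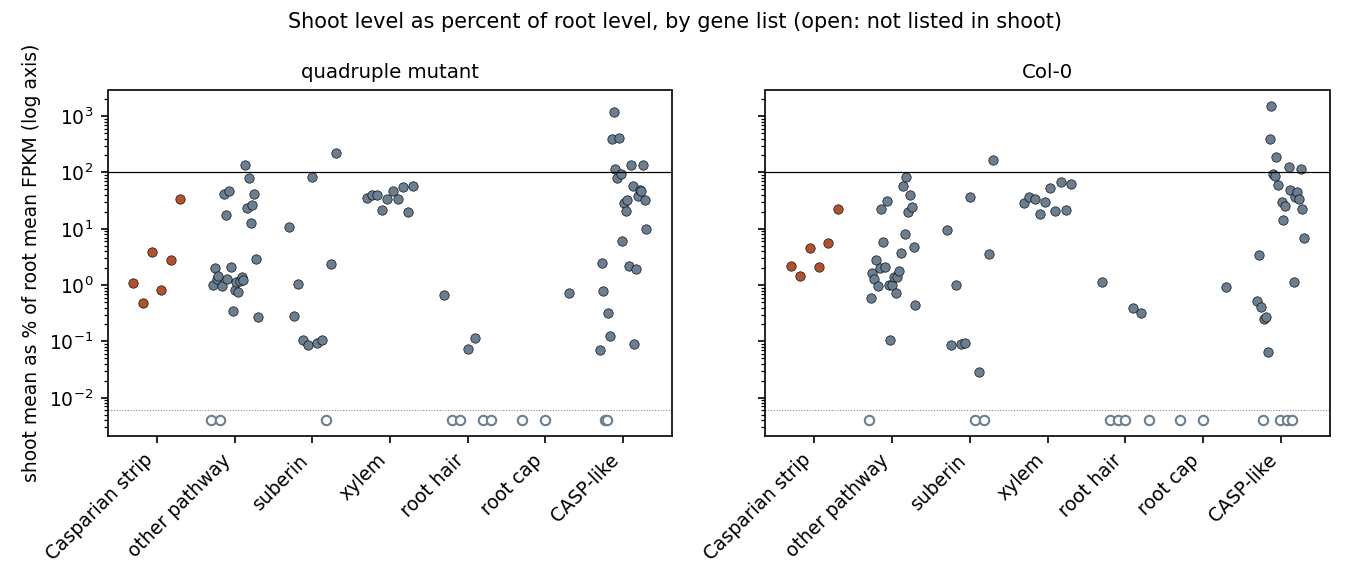
Mean shoot FPKM as a percent of mean root FPKM (log axis) in the mutant (left) and Col-0 (right), 1 point per gene with a root mean of at least 1 FPKM, by gene list, with open points for genes not listed in that shoot group. The Casparian strip genes other than SGN3 lie between 0.473% and 5.61%, below all xylem genes and above most suberin, root hair and root cap genes.

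Lists of other root cell types were set beside these values. Of 11 suberin genes with a root mean of at least 1 FPKM, the shoot mean was under 6% of the root mean for 8 in each genotype, with a median of 0.287% in the mutant and 0.0921% in Col-0. The suberin gene GPAT5 was not listed in any of the 4 shoot libraries. In contrast, the shoot mean of KCS20 was 218% of its root mean in the mutant and 165% in Col-0. For FAR1 it was 83.2% and 37.1%. Summed over all 12 suberin genes, shoot stood at 24.1% of root in the mutant and 18.0% in Col-0. The 7 root hair genes together stood at 0.165 and 0.192 FPKM in mutant shoots and 0.202 and 0.549 FPKM in Col-0 shoots, against 182 and 183 FPKM in mutant roots and 158 and 144 FPKM in Col-0 roots. In each genotype 4 of the root hair genes were not listed in either shoot library, though not the same 4 in both genotypes. Of 3 root cap genes 2 were not listed in either shoot library of each genotype. The summed members, at 10.03 and 9.61 FPKM in mutant shoots and 13.7 and 10.2 FPKM in Col-0 shoots, were 3.09% of their root sum in the mutant and 4.18% in Col-0, against 0.0977% and 0.249% for the root hair genes. The 10 xylem genes, of a tissue found in root and shoot, had a median of 37.7% in the mutant and 31.8% in Col-0. In root the suberin list had a median genotype change of 0.08, the xylem list 0.16, the root hair list 0.26 and the root cap list 0.22, beside 0.18 for the 6 members, and 0 genes of any of these lists passed. Mutant libraries lay wholly above Col-0 libraries for 3 of 11 suberin, 6 of 10 xylem, 7 of 7 root hair and 2 of 3 root cap genes, against 20.5% of all genes.

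The CASP-like genes, relatives of the CASP scaffold genes that mostly have no known place in the strip, were set beside the members. The RefSeq table names 34 of them, of which 29 were tested. Root minus shoot, 20 were called higher and 5 lower in the mutant, and 21 higher and 4 lower in Col-0. Over all genes 58.7% were called higher and 17.7% lower in the mutant, and 72.1% higher and 15.0% lower in Col-0. The 3 highest in root exceeded or neared CASP1. CASPL1D1 had 219 and 187 FPKM in mutant roots and 263 and 236 FPKM in Col-0 roots, CASPL1B1 had 115 and 89.9 FPKM in mutant roots and 107 and 94.8 FPKM in Col-0 roots, and CASPL1B2 had 111 and 89.0 FPKM in mutant roots and 103 and 90.8 FPKM in Col-0 roots. CASPL1D1 was separate between genotypes, with a change of -0.30 (SE 0.18, limma adjusted p = 1). In root 20 of the 29 had a lower mean in the mutant, with a median change of -0.13, where the 6 members were all higher. Of all genes tested, 47.9% had a positive change. For 14 of the 29 both mutant root libraries lay below both Col-0 libraries, against 22.9% of all genes. By test, 0 of the 29 passed in root, in shoot or for the difference between tissues.

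Genes were also ranked by how closely their log2 values over the 8 libraries, centred on each gene's mean, followed the mean profile of the 6 members. Among 19978 other genes the smallest Euclidean distances were those of AT5G14020 (0.244), PER24 (0.25), AT1G76470 (0.255), PAP7 (0.265), AT5G48290 (0.275), MLO15 (0.279), AT5G08350 (0.289) and AT3G01513 (0.291). PER24, named for a class III peroxidase, had 13.7 and 12.1 FPKM in mutant roots and 12.7 and 11.2 FPKM in Col-0 roots. In shoot it was listed in 1 library only, mutant replicate 1, at 0.0221 FPKM. The 8 libraries form a root and a shoot cluster, so that this distance mostly measures the size of the step between tissues. With 1 added to FPKM, the step of a gene near 0 FPKM in shoot is set mostly by its root level. In the mutant CASP5 had a step of 3.08 and CASP1 one of 5.73, though root was 123 times shoot for CASP5 and 91.1 times for CASP1. Near ranks thus also reflect a like root level. Of the pathway list, MYB36 came nearest (distance 0.551, rank 163). PER9, chosen after its values were seen, came next (0.678, rank 274), and UCC1 had rank 350 (0.745). Genes of other lists ranked nearer, among them, chosen after their values were seen, the root hair gene RHD6 (rank 22) and the CASP-like genes CASPL1C2 (rank 31) and CASPL1C1 (rank 82). The median rank was 2140 for the pathway list and 794 for the root hair list. The members themselves lay at distances between 1.01 for CASP4 and 3.25 for SGN3 from their own mean profile, since their steps between tissues on this scale differ in size.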

How the data were processed

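RNA of 8 seedling libraries was measured. Per the labels' protocols, RNA of frozen tissue was taken up in TRIzol and sequenced by a company on an Illumina HiSeq. The submitters' processing notes name the build TAIR10; no aligner, FPKM program or strandedness is given in the sources used here. Values are FPKM, of which the authors deposited 1 table per library, listing only genes above 0, per the file headers and values; an absent gene was taken as 0 and is called not listed. Coordinates are those of the tables with 1 added to the start. RefSeq's TAIR10.1 table gave names only (25141 identifiers matched). Of the genes tested, 15.6% share a merged locus.

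Genes with a mean of at least 1 FPKM over the 4 root or the 4 shoot libraries were tested (19985 genes, with all 6 members). Each member passed through root, and CASP2, CASP4 and CASP5 through root only. A single limma model (version 3.58.1, R 4.3.3) of the 4 groups was fitted to log2 of FPKM plus 1, with 4 residual degrees of freedom and robust moderation with a mean trend. Benjamini-Hochberg adjustment ran over all tested genes for each comparison, and an adjusted p under 0.05 is a call. The fit was also run on simulated data with independent noise around the group means. Those data held no library that stood apart like Col-0 shoot replicate 1, so that run does not check the fit for such a library. Composition ratios were compared by exact permutation. Alternatives were another pseudocount (0.1 or 0.5), filter, scaling or moderation, removal of a length trend, separate fits per tissue or genotype, a replicate block and leaving out each library.

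The members and lists were chosen with earlier results of these data known, so nothing that those results already showed counts as independent. Named by rule are the members, a fixed part of the pathway list, list genes that passed a genotype test, the 3 highest CASP-like genes and the 8 nearest profiles. Of the pathway list 4 loci carry no name in these sources and are counted or given by locus only. GPAT5, KCS20, FAR1 and the genes sharing a locus were added after their values were seen. One gene of the set is not reported here and enters no count, sum or profile of the members.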

Additional observations from a re-analysis of the deposited data

How the results depend on the processing

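The number of members called was unchanged in root for all 19 alternatives (0 of 6), in Col-0 for root minus shoot (6 of 6), and in the mutant except after median-ratio rescaling over all libraries (5 of 6, without SGN3). For the shoot comparison and for the difference between tissues it ranged from 0 to 4 with libraries left out, being 1 without Col-0 shoot replicate 1, 4 without Col-0 shoot replicate 2 and 0 otherwise. The changes that turned sign outside the left-out libraries were CASP4 in shoot, at 0.038 with a pseudocount of 0.1 and 0.049 without the length trend, and SGN3 in the difference between tissues, at 0.059 without the length trend. With libraries left out, changes in root ranged from -0.0017 to 0.24 for CASP4. In shoot they ranged from -1.1 to 0.22 for CASP1, -0.26 to 0.23 for CASP4 and -0.26 to 0.090 for CASP5. For the difference between tissues they ranged from -0.11 to 1.20 for CASP1, -0.12 to 0.38 for CASP4 and -1.14 to 0.037 for SGN3. The cause was not tested. Genes called over the whole table ranged from 0 to 17 in root (2 as fitted), from 0 to 13202 in shoot (204 as fitted) and from 0 to 11547 for the difference (0 as fitted).

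The labels number the replicates without saying that a number pairs libraries. Replicate 1 deviations from the group mean correlated across genes at 0.04 between mutant and Col-0 roots and at 0.12 between mutant and Col-0 shoots. With the replicate number as a block 0, 0 and 0 members passed in root, in shoot and for the difference, and 6 and 6 for root minus shoot in the mutant and Col-0; genes called were 1 in root and 2 in shoot. The number of libraries, 2 per group, and shoot levels under 1 FPKM for CASP2, CASP4 and CASP5 limit what could be detected.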
